A study of Caenorhabditis elegans with 6 samples.

Results

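Small RNAs bound to the Argonaute protein WAGO-4 were compared between Caenorhabditis elegans given RNAi against lin-15b and the first of the untreated libraries. The comparison holds 2 of the 6 libraries of the study, 1 on each side, chosen by their titles. The tested animals were 3xFLAG::GFP::WAGO-4; lin-15b(RNAi), and the untreated animals were 3xFLAG::GFP::WAGO-4 with no RNAi. Both were collected as young adults at 20 °C, so the tagged WAGO-4 is shared by every group described here, and small RNAs were recovered with an anti-FLAG M2 antibody, gel-purified by length and sequenced. A further library came from 3xFLAG::GFP::WAGO-4 animals on HT115, the E. coli strain commonly used to feed double-stranded RNA to worms. It is set beside the pair for values on strand and for levels. The growth notes name OP50 bacteria for both libraries of the pair and do not say on what food the lin-15b RNAi was given. The notes of the HT115 library also speak of embryos held at several temperatures, which does not match its young adult label. The remaining 3 libraries, from animals exposed to oma-1 double-stranded RNA (P0) and their F1 and F3 descendants, are used only for single values.

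WAGO-4 is a germline Argonaute of the worm-specific clade. Its partners are secondary small RNAs made on target transcripts by RNA-dependent RNA polymerases, so they are antisense to the genes they come from, and it is known for its part in the inheritance of RNAi. LIN-15B is a nuclear protein with a THAP domain and belongs to the synMuv B group, whose members keep germline genes silent in somatic cells. Worms that lack it are known to respond more strongly to RNAi.

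The lin-15b RNAi table held 9439667 gene-assigned reads, against 11309227 in the first untreated table, over the same 45162 genes. Levels are counts scaled to 1000000 of these reads (CPM), and a log2 ratio is that of the lin-15b RNAi level over the first untreated level with 0.5 added to each count. With 1 library a side there is no replicate check and no test, and each interval is a 95% interval for counting error only. Even that may be too narrow, since reads amplified by PCR carry no molecular identifier and need not stand for separate molecules. The first untreated table has a single count column. Here it is taken to hold both strands together, which the labels do not state. Both kinds of gene have reads in it: 187 genes that were under 10% antisense in all 5 libraries with separate strands hold 564102 reads of the column, and 684 genes over 90% antisense hold 1873626. The wago-4 gene itself was at 2092 CPM after lin-15b RNAi and 2163 CPM in the first untreated library.

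Small RNAs against the targeted gene had the highest ratio among measured genes with mostly antisense reads, and place 13 among all measured genes. Over both strands lin-15B (WBGene00023497, WBcel235 chromosome X, 15726123 to 15732025, plus strand) had 11802 reads after lin-15b RNAi, against 2122 in the first untreated library. The levels were 1250 CPM (exact Poisson interval 1228 to 1273) after lin-15b RNAi and 187.6 CPM (179.7 to 195.8) in the first untreated library, a 6.66-fold difference (exact conditional binomial interval 6.36 to 6.98). The gene stood at place 46 of all genes by level after lin-15b RNAi, and at place 1375 in the first untreated library. Of its reads after lin-15b RNAi, 11375 were antisense and 427 sense, an antisense share of 96.4% (Wilson interval 96.0 to 96.7). Antisense reads alone were 6.42 times all reads of the first untreated library, so the difference does not rest on how that library's column divides by strand. Each of the annotated transcripts was higher after lin-15b RNAi, ZK662.4.1 with 6108 reads against 778 (9.41-fold, 8.73 to 10.15) and ZK662.4.2 with 5694 reads against 1344 (5.08-fold, 4.78 to 5.39). The 2 counts differed more in the first untreated library than in HT115, where they were 346 and 363.

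Among the other libraries, the first untreated one had the highest lin-15B level. HT115 held 75.5 CPM (70.1 to 81.3), and the oma-1 libraries held 87 CPM in P0, 96.1 CPM in F1 and 101.3 CPM in F3. Against HT115 the lin-15B level after lin-15b RNAi was 16.55-fold higher. The antisense share of lin-15B was 96.4% after lin-15b RNAi and 78.8% (75.7 to 81.7) on HT115. Sense reads were also higher, at 45.2 CPM after lin-15b RNAi and 15.98 CPM on HT115.

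**Figure D1:**
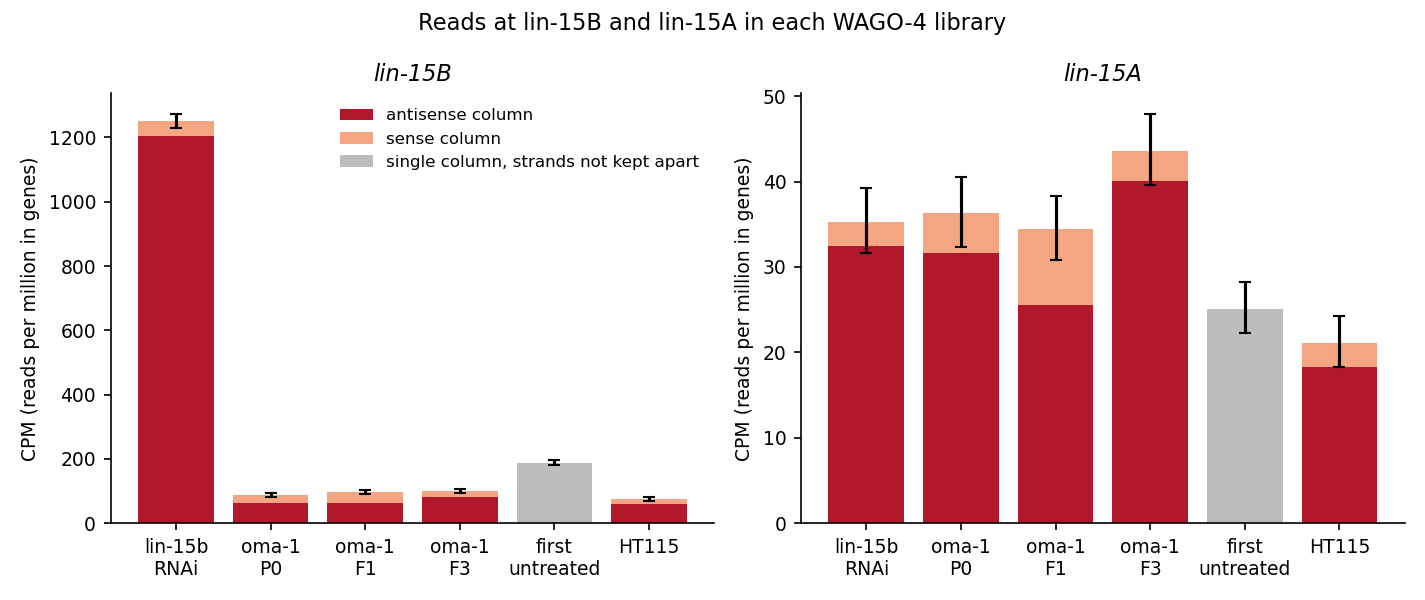
Level of lin-15B (left) and lin-15A (right) in each library, in CPM over both strands, with antisense and sense columns stacked, the single-column library in grey, and error bars for exact Poisson 95% intervals. The lin-15b RNAi library stands at 1250 CPM for lin-15B, above the 5 other libraries, while its lin-15A level of 35.3 CPM lies inside their range.

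The neighbouring gene of the same operon, lin-15A (WBGene00023498, chromosome X, 15731968 to 15735365, plus strand), encodes an unrelated synMuv A protein and overlaps the end of lin-15B. It had 35.3 CPM after lin-15b RNAi and 25.1 CPM in the first untreated library, 1.41-fold (1.195 to 1.652). The 3 oma-1 libraries held 34.4 to 43.6 CPM of lin-15A, so the lin-15b RNAi level was not outside the range of libraries in which lin-15B was not targeted. Of the 3 annotated genes on each side of lin-15B, the nuclear hormone receptor gene nhr-48 had 67.3 CPM after lin-15b RNAi and 43.2 CPM in the first untreated library (1.56-fold, 1.38 to 1.76). The oma-1 libraries held 62.2 to 78.4 CPM of nhr-48. The neighbours ZK662.5, ZK662.6, srg-64 and ZK678.11 had at most 22 reads in either library.

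A gene was called measured when it reached 25 CPM in the higher of the 2 libraries, which 5818 genes did. Among them 47 were at least 4-fold higher after lin-15b RNAi (0.808%) and 12 at least 4-fold lower (0.206%). At 2-fold the counts were 367 higher (6.31%) and 105 lower (1.8%). The 5 genes just inside 4-fold on the higher side had log2 ratios of 2.002 to 2.034 and the 5 just outside 1.983 to 1.995. On the lower side the 5 just inside lay at -2.25 to -2.08 and the 5 just outside at -1.94 to -1.85.

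The difference followed the strand of the reads. Antisense reads made up 69.98% of the lin-15b RNAi library (Wilson interval 69.95 to 70), against 77.8% on HT115, and the share in the first untreated library is not known. The 460 measured genes with under 10% antisense reads after lin-15b RNAi had a median log2 ratio of 1.13, against 0.04 over all measured genes. Their reads made up 11.7% of the lin-15b RNAi library and 6.12% of the first untreated library. The 569 genes at 10 to under 50% had a median of 0.51, the 3039 genes at 50 to under 90% one of 0.01, and the 1750 genes at 90% or more one of -0.13. These classes use the strand of the lin-15b RNAi library, so a gene with more sense reads there falls by construction into the first class. With classes taken from the HT115 library instead, a check added after seeing the data, the medians were 1.13 for the 324 genes under 10% antisense, 0.72 for 302 genes, 0.08 for 2472 genes and -0.08 for the 2718 genes at 90% or more. Both sets of classes hold genes that reached the minimum level only after lin-15b RNAi and so had to be higher. How far such genes moved the medians was not tested.

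**Figure D2:**
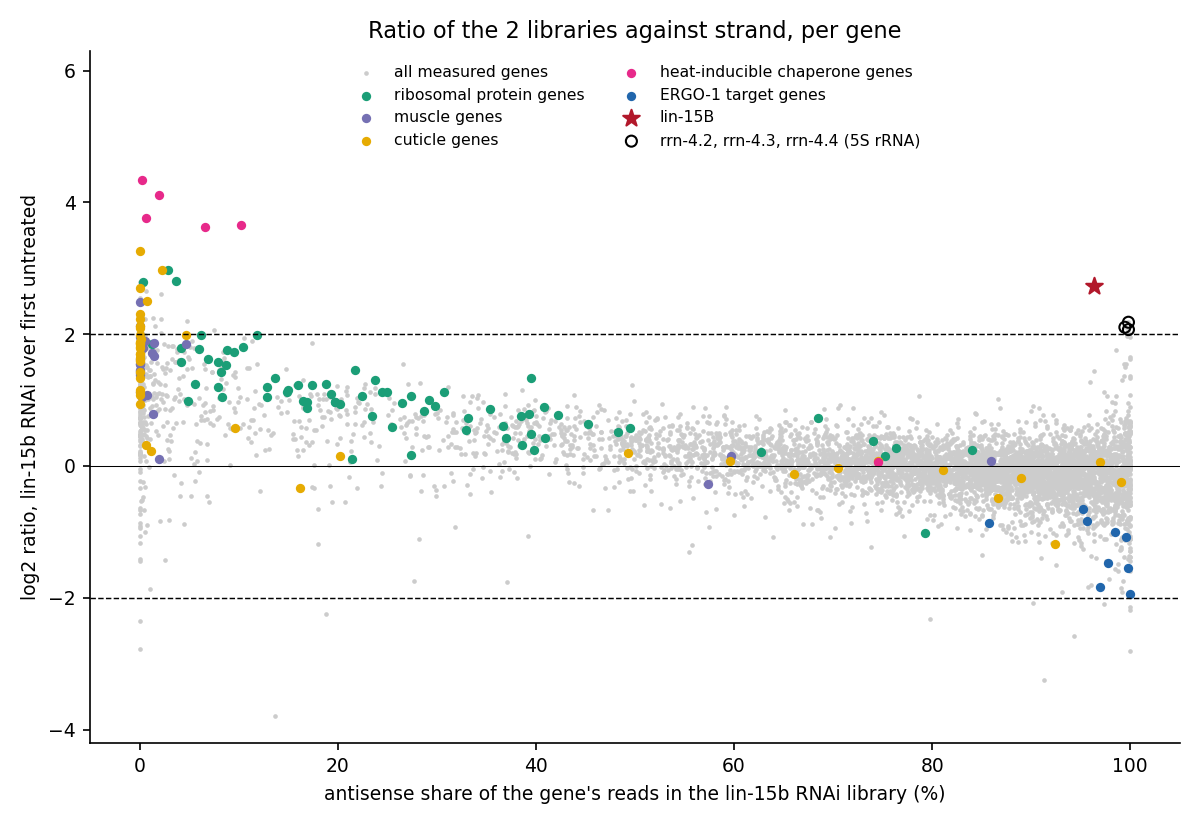
Each point is 1 of the 5818 measured genes, with the antisense share of its reads in the lin-15b RNAi library (x axis, percent) and its log2 ratio of lin-15b RNAi over first untreated (y axis), and dashed lines at 4-fold. High ratios gather at the sense end, with heat-inducible chaperone genes at the top, and on the antisense side lin-15B and 3 copies of 5S rRNA stand apart while ERGO-1 targets lie low.

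Of the 47 genes that were 4-fold higher, 41 had under 10% antisense reads after lin-15b RNAi, against 7.91% of all measured genes. That share comes from the same reads that made these genes higher. By their antisense share on HT115, 27 of the 47 were under 10%, as were 324 of the 5818 measured genes. A further 14 of the 47 were at 10 to under 50% on HT115. In 40 the sense reads alone were more than 4 times all reads of the first untreated library. Only 18 of the 47 also reached 25 CPM in the first untreated library, and the rest, measured through the lin-15b RNAi library alone, had to be higher. By annotation 36 of the 47 were protein-coding, 4 rRNA, 2 microRNA, 2 snoRNA, 2 tRNA and 1 another non-coding RNA. Of the 12 lower genes 8 had at least 50% antisense reads, where 82.3% of all measured genes did, and 7 were protein-coding. Protein-coding genes made up 5564 of the 5818 measured genes. The 4789 measured genes with at least 50% antisense reads, called antisense-rich here, have reads in the orientation of WAGO-4 small RNAs. Among them 5 were 4-fold higher (0.104%) and 8 were 4-fold lower (0.167%), and at 2-fold 25 were higher (0.522%) and 90 lower (1.88%). Their median log2 ratio was -0.03.

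Beside lin-15B, the antisense-rich genes that were 4-fold higher were the 5S ribosomal RNA copies rrn-4.2, rrn-4.3 and rrn-4.4 and the non-coding gene Y39G10AR.26. At the edge of the call, Y39G10AR.26 was under 4-fold with median-of-ratios scaling (log2 ratio 1.97), TMM scaling (1.93) and a pseudocount of 5 (1.98), and rrn-4.3 with TMM scaling (1.997). The 3 rRNA copies had 234.8 to 239.9 CPM after lin-15b RNAi, against 52.9 to 55.9 CPM in the first untreated library, and 99.5 to 99.8% of their reads stood in the antisense column. The other 12 measured copies had 0.120 to 0.658% antisense reads and were higher as well, 3.41-fold in sum (2.91 to 3.96-fold per copy) against 4.35-fold for the 3. The copies are near-identical in sequence and can exchange reads, and the reference annotation places all of them on the plus strand, so the strand of these 3 is uncertain. Y39G10AR.26 had 82.6 CPM after lin-15b RNAi and 20.6 CPM in the first untreated library (4.01-fold, 3.46 to 4.66). It lies opposite a snoRNA gene, and its reads were 99.9% antisense.

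Further down the same ordering, most of the next antisense-rich genes were also annotated opposite another gene. C10C6.11, Y53F4B.58, C41C4.15, T03F7.14 and F55A11.13 lie opposite snoRNA genes and were 2.71- to 3.90-fold higher. T27A10.8 and F59D8.3 lie opposite the yolk protein genes vit-3 and vit-4, and were 3.17-fold (2.67 to 3.76) and 3.09-fold (2.62 to 3.65) higher. T04C12.30 lies opposite the actin gene act-1 and was 3.94-fold higher (3.102 to 5.046). Reads called antisense to these genes cannot be told apart from sense reads of the opposite gene. R13H4.5, with no annotated gene opposite, had 67.9 CPM after lin-15b RNAi, against 20.0 CPM in the first untreated library and 115.5 CPM on HT115.

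The 8 antisense-rich genes that were 4-fold lower were Y55D5A.1, Y36E3A.2, T05E11.9, Y71F9B.13, linc-45, K06B9.6, ZK1067.3 and ZC132.4. The most abundant of them was ZK1067.3, with 597 CPM after lin-15b RNAi and 2562 CPM in the first untreated library, 4.29 times lower, and 97.4% antisense. HT115 held 428 CPM of ZK1067.3 and the oma-1 libraries 309.7 to 440.0 CPM, so the first untreated level stood above the other 5 libraries. Y55D5A.1 had 46 reads after lin-15b RNAi and 528 in the first untreated library, 9.58 times lower (7.08 to 13.25). Its level was 4.87 CPM after lin-15b RNAi and 6.71 CPM on HT115. K06B9.6 had 62.5 CPM after lin-15b RNAi, 276 CPM in the first untreated library and 86.6 CPM on HT115. The long non-coding RNA gene linc-45 had 17.2 CPM after lin-15b RNAi, 78.3 CPM in the first untreated library and 11.2 CPM on HT115. Y36E3A.2 was below both other libraries, with 4.34 CPM after lin-15b RNAi, 30.9 CPM in the first untreated library and 27.9 CPM on HT115, and so was ZC132.4, with 23.8, 101 and 88.0 CPM in the same order. Among the 8 genes, the antisense level after lin-15b RNAi was below that of HT115 in 4 and above it in 4. T05E11.9 and Y71F9B.13 were 5.98 and 5.02 times lower than in the first untreated library. T05E11.9 had 46.9 CPM after lin-15b RNAi, 280 CPM in the first untreated library and 81.6 CPM on HT115. Y71F9B.13 had 11.55, 58.0 and 10.0 CPM in the same order. For all 8 genes but Y36E3A.2 the first untreated level stood above the other 5 libraries. The lin-15b RNAi level lay within the range of HT115 and the oma-1 libraries for T05E11.9, K06B9.6 and Y55D5A.1. It lay above that range for ZK1067.3, Y71F9B.13 and linc-45, and below it for Y36E3A.2 and ZC132.4. Of the 8 genes, Y55D5A.1, Y36E3A.2, Y71F9B.13, linc-45 and ZC132.4 were under 25 CPM after lin-15b RNAi. They were measured through the first untreated library alone and so had to be lower.

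Targets of the ERGO-1 pathway were lower as a group. ERGO-1 is an Argonaute whose primary small RNAs lead to secondary small RNAs against a set of recently duplicated and poorly conserved genes. Of 17 matched genes 9 were measured. All 9 had lower levels after lin-15b RNAi than in the first untreated library, with a median log2 ratio of -1.08 and a range of -1.94 to -0.65, against a median of -0.03 over the antisense-rich genes. Among the 9, fbxb-37 and K02E2.6 were under 25 CPM after lin-15b RNAi, so as measured genes they had to be lower. At 2-fold 5 of the 9 were lower, against 1.88% of the antisense-rich genes. Their summed level was 1174 CPM after lin-15b RNAi and 3300 CPM in the first untreated library over all 17, and 98.8% of the reads were antisense. Y17D7B.4 carried most of it, with 717 CPM after lin-15b RNAi and 2089 CPM in the first untreated library (2.91 times lower). C36A4.11 had 111 CPM after lin-15b RNAi and 425 CPM in the first untreated library, and fbxb-37, an F-box gene, had 17.5 CPM and 62.5 CPM in the same order. Y37E11B.2 was 2.78 times lower and C44B11.6 2.11 times lower. Of the 8 members under 25 CPM, 6 were also lower, and clec-194 (7 against 4 reads) and F39F10.4 (18 against 19 reads) were not.

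The levels on HT115 show how much these genes differ between libraries without lin-15b RNAi. K02E2.6 had 23.8 CPM after lin-15b RNAi and 43.4 CPM in the first untreated library, and HT115 held 332 CPM. C44B11.6 had 71.0 CPM after lin-15b RNAi, 149.9 CPM in the first untreated library and 405 CPM on HT115. Y17D7B.4 had 717 CPM after lin-15b RNAi, above the 253 CPM of HT115. C36A4.11, at 111 CPM after lin-15b RNAi and 425 CPM in the first untreated library, had 122 CPM on HT115. The oma-1 libraries held 76.4 to 157 CPM of C36A4.11. Of the 9 measured members 7 were below HT115 over both strands and 2 were above.

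**Figure D3:**
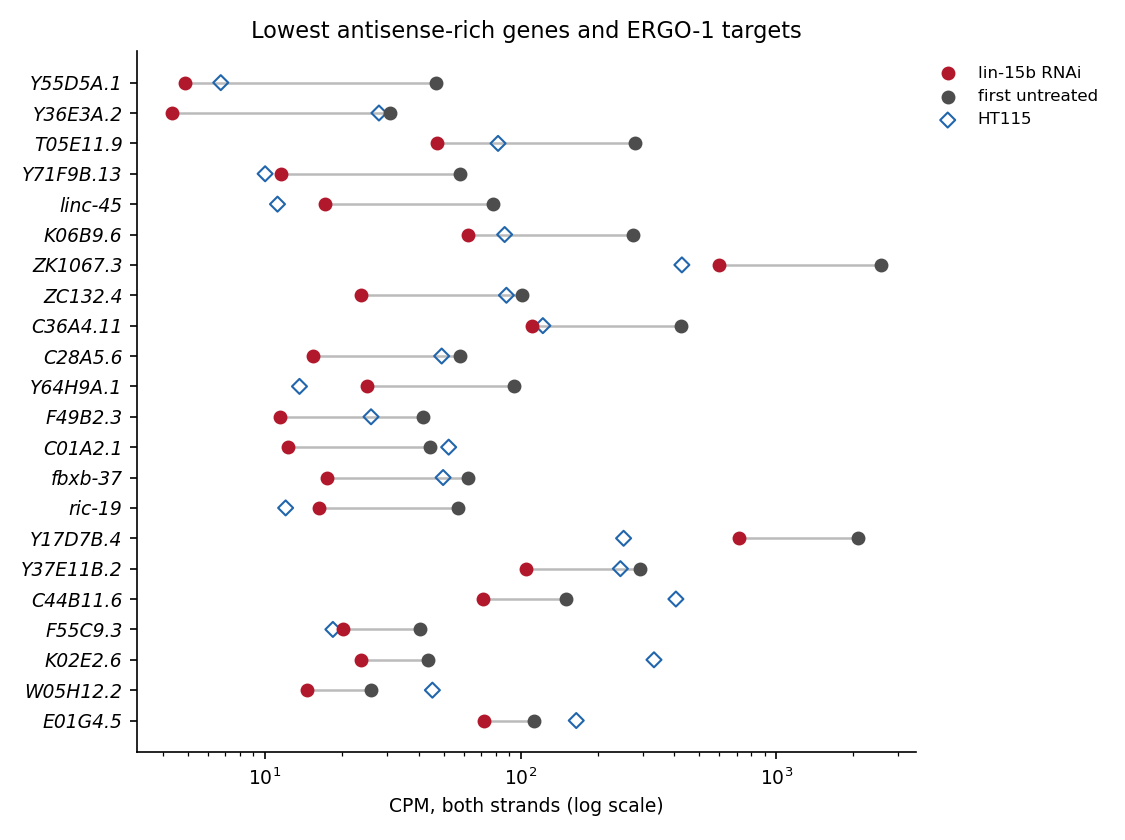
Levels over both strands, in CPM on a log scale, of the 15 lowest antisense-rich genes and the measured ERGO-1 targets, ordered by their log2 ratio, with filled points for lin-15b RNAi and first untreated and open diamonds for HT115. The lin-15b RNAi point lies left of the first untreated point in each row, and the HT115 point lies on either side of both, as for K02E2.6 at 332 CPM and Y17D7B.4 at 253 CPM.

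The abundant small RNA targets were lower too, by smaller amounts. Antisense-rich genes with a mean level of at least 1000 CPM numbered 66 and had a median log2 ratio of -0.31, with 53 lower and 13 higher. The 2311 genes at 100 to under 1000 CPM had a median of -0.08, and the 2412 below 100 CPM one of 0.03. Together the 66 genes held 9.55% of the reads after lin-15b RNAi and 12.7% in the first untreated library. The gap junction gene inx-14, needed in the gonad, had 1783 CPM after lin-15b RNAi and 4289 CPM in the first untreated library (2.41 times lower). The AAA ATPase gene figl-1 had 2179 CPM after lin-15b RNAi and 4760 CPM in the first untreated library, and the splicing helicase gene snrp-200 2333 and 4884 CPM in the same order. The kinase gene chk-2, needed in meiosis and the most abundant antisense-rich gene of both libraries, differed less, with 4385 CPM after lin-15b RNAi and 6070 CPM in the first untreated library. Y54G2A.19 had 2934 and 5166 CPM and bath-24 2136 and 3917 CPM in the same order. The abundant non-coding genes linc-29 (3236 and 2645 CPM) and F31C3.14 (3729 and 2584 CPM) were slightly higher after lin-15b RNAi, and W09C5.12 (2969 and 3066 CPM) was about level.

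Several of these targets set the pair apart from the other 4 libraries. HT115 held 654 CPM of chk-2, 137 CPM of inx-14, 387 CPM of figl-1, 228 CPM of Y54G2A.19 and 162 CPM of bath-24, all below both the lin-15b RNAi and the first untreated levels. The tables differ as well, with 56029 lines for the lin-15b RNAi and first untreated libraries and 56377 lines for the other 4. In comparisons with HT115 lin-15b RNAi and membership of this pair of libraries cannot be told apart. Against HT115, 157 of 6234 measured genes were 4-fold higher over both strands (2.52%) and 133 lower (2.13%). For antisense reads alone 130 of 5772 were higher (2.25%) and 131 lower (2.27%). These shares are larger than those within the pair. Both comparisons share the lin-15b RNAi library, so their ratios are not independent.

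Genes of P granules and of small RNA pathways had list medians of -0.09 to 0.01, where the median of all measured genes was 0.04, while the oocyte and embryo genes had a median of 0.30, with 27 of 32 higher. Among 23 measured P granule genes, whose products form the germ granules that hold WAGO-4, the median log2 ratio was -0.06, with 8 higher and 15 lower. The piwi gene prg-1 had 1535 CPM after lin-15b RNAi and 1723 CPM in the first untreated library, and znfx-1, which encodes a helicase of small RNA inheritance, had 1321 and 1620 CPM in the same order. The 15 Argonaute genes had a median of 0.01, which turned negative under median-of-ratios and TMM scaling, and the nuclear Argonaute gene hrde-1 had 906 CPM after lin-15b RNAi and 813 CPM in the first untreated library. Among 43 genes of the RNAi machinery 17 were higher and 26 lower, with a median of -0.09. The mutator genes mut-15 (603 and 1108 CPM), mut-7 (286 and 492 CPM) and mut-14 (787 and 1166 CPM), which make and amplify small RNAs, were 1.84, 1.72 and 1.48 times lower after lin-15b RNAi.

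Genes of meiosis and of the spindle lay slightly lower, while DNA replication genes did not. The 41 meiosis genes had a median log2 ratio of -0.20, with 15 higher and 26 lower, and the crossover gene cosa-1 had 59.8 CPM after lin-15b RNAi and 125 CPM in the first untreated library (2.09 times lower, 1.89 to 2.31). The 41 spindle and centrosome genes had a median of -0.19, with 10 higher and 31 lower. Among them the cyclin-dependent kinase gene cdk-1 had 1831 CPM after lin-15b RNAi and 3103 CPM in the first untreated library, and the dynein regulator gene lis-1 406 and 782 CPM in the same order. The 7 of 94 sperm genes that were measured had a median of -0.21, the 24 kinetochore genes one of -0.09 and the 35 DNA repair genes one of -0.06, all below the median of all measured genes, 0.04. Most genes of these lists were antisense-rich, such as 38 of the 41 meiosis genes and all 35 DNA repair genes. The median of all antisense-rich genes was -0.03, close to those of the kinetochore and DNA repair lists. Of 26 measured DNA replication genes 18 were higher and 8 lower, with a median of 0.12.

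The synMuv genes, which act with or beside lin-15B, had ratios near the middle of all genes, the target itself apart. The 8 DREAM complex genes split into 4 higher and 4 lower, with a median log2 ratio of -0.003 whose sign depends on the scaling. The retinoblastoma gene lin-35 had 506 CPM after lin-15b RNAi and 692 CPM in the first untreated library (1.37 times lower), and the DREAM gene lin-54 had 409.5 and 379.2 CPM in the same order. Of the other 20 measured synMuv genes, lin-15B included, 7 were higher and 13 lower, with a median of -0.04. Here lin-13, which encodes a zinc-finger protein of the synMuv B group, had 882 CPM after lin-15b RNAi and 981 CPM in the first untreated library.

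**Figure D4:**
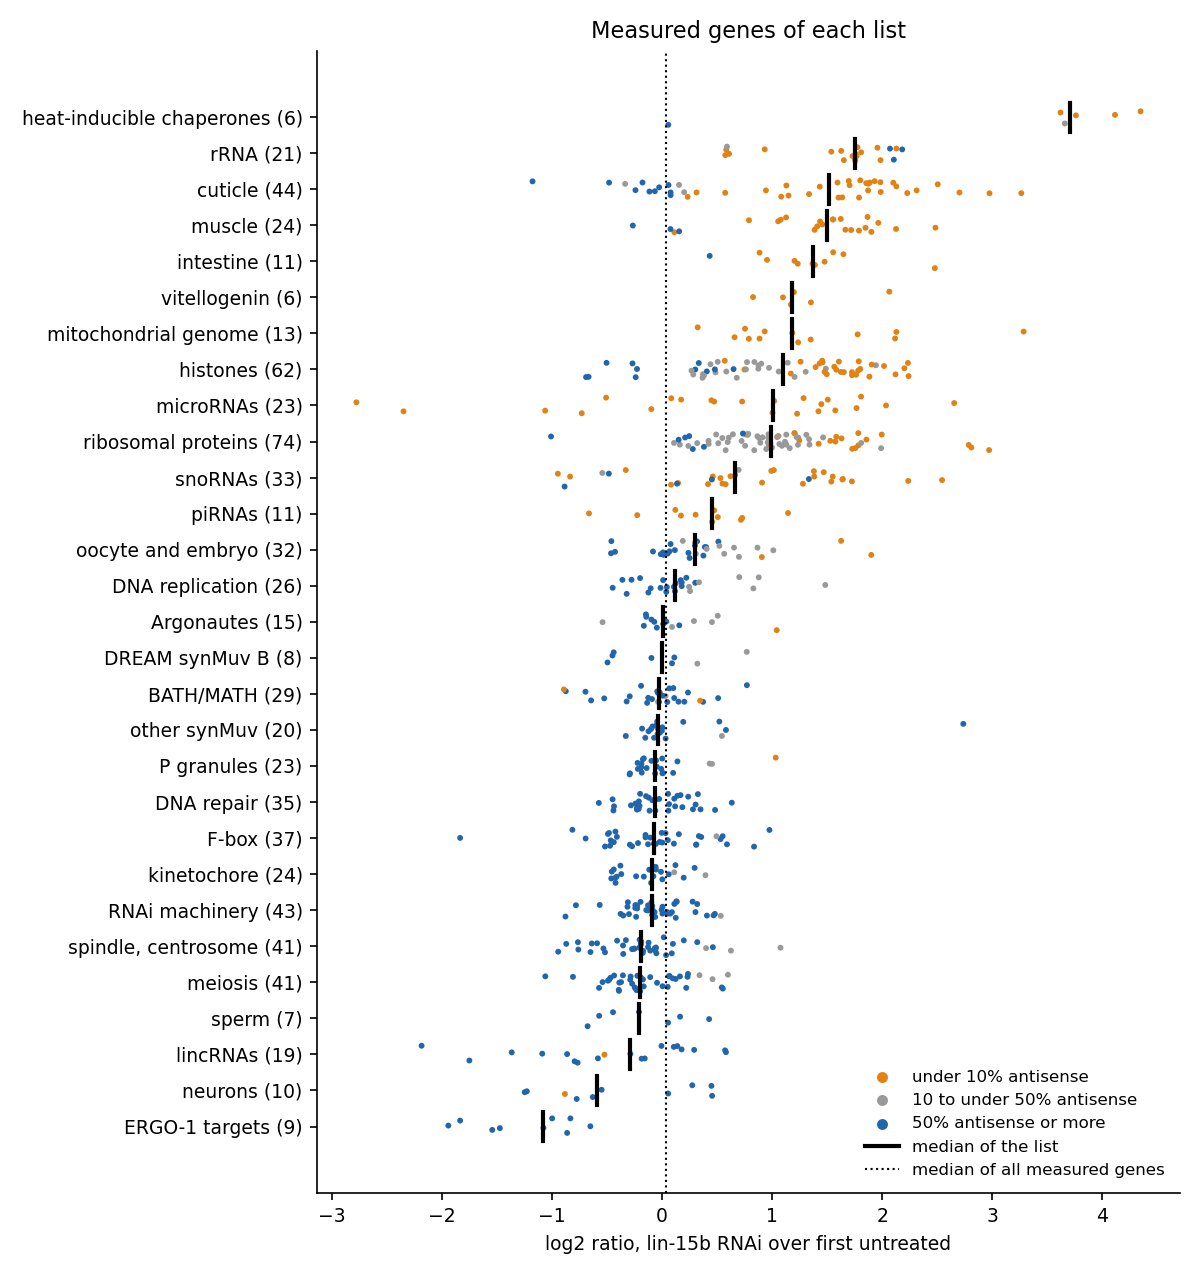
Log2 ratio of lin-15b RNAi over first untreated for the measured genes of each list (number in brackets), coloured by the antisense share of their reads after lin-15b RNAi, with a bar at the median of the list and a dotted line at the median of all measured genes, 0.04. Lists with mostly sense reads such as cuticle (1.51, some of its genes not being cuticle genes) and muscle (1.502) lie right of the line, lists of germline genes with antisense reads lie close to it, and ERGO-1 targets lie at -1.08.

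Reads in the sense orientation of somatic and housekeeping transcripts made up most of the higher genes. The highest ratios belonged to heat-inducible chaperone genes, whose transcripts are scarce without stress. Over both strands F44E5.5, of the HSP70 family, had 857 reads after lin-15b RNAi and 50 in the first untreated library, 20.5-fold (15.4 to 27.9). Its neighbour F44E5.4 had 672 and 59 reads in the same order (13.65-fold, 10.45 to 18.12). The small heat shock gene hsp-16.1 had 426 reads after lin-15b RNAi and 29 in the first untreated library (17.6-fold, 12.08 to 26.6). The genes hsp-16.48 and hsp-16.49 had 45.02 and 38.45 CPM after lin-15b RNAi, against 3.63 and 3.01 CPM in the first untreated library. These genes come in near-identical copies that can share reads, so the division between copies is uncertain. The antisense share of the 5 genes was 0.233 to 10.2%.

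Most less abundant members of the same list were higher too. The gene hsp-16.2 had 204 reads after lin-15b RNAi and 5 in the first untreated library, hsp-70 had 142 and 5 reads, and hsp-16.41 had 89 and 4 reads in the same order. The members hsp-12.3 and hsp-12.6 had at most 4 reads in either library, and dnj-13, with 74.5% antisense reads, was level at 183 CPM after lin-15b RNAi and 176 CPM in the first untreated library. Of 14 members 6 were measured. The 5 that were 4-fold higher reached 25 CPM after lin-15b RNAi and not in the first untreated library, so that they had to differ, and their count is no more than a description. HT115 held 2.77 CPM of hsp-16.1 and 6.82 CPM of F44E5.5, close to the first untreated library. In the oma-1 libraries hsp-16.1 was at 5.43 to 6.80 CPM, and F44E5.5 at 10.15 CPM in P0, 40.89 CPM in F1 and 32.05 CPM in F3.

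Collagens, muscle genes and intestinal genes had mostly higher levels, where 53.6% of all measured genes were higher. The cuticle list was filled by gene name, and of its 44 measured genes 36 were higher and 8 lower, with a median log2 ratio of 1.51. It also holds dosage compensation genes such as dpy-28, with 277 CPM after lin-15b RNAi and 290 CPM in the first untreated library. Of the 32 measured collagens named col- alone, a subset taken after seeing the data, 29 were higher, with a median of 1.79, and 8 were 4-fold higher, against 0.808% of all measured genes. A measured gene that is scarce in the first untreated library must be higher. Among the 20 collagens that also reached 25 CPM there, likewise chosen after seeing the data, 17 were higher and 2 were 4-fold higher, with a median of 1.62. The share higher among all genes at that level was 50.1%. The collagen gene col-81 had 91.2 CPM after lin-15b RNAi and 9.46 CPM in the first untreated library (9.64-fold, 7.88 to 11.9). Also among the 15 highest ratios were col-129 (70.5 and 8.93 CPM) and col-159 (62.9 and 9.64 CPM). Of 24 measured muscle genes 23 were higher, with a median of 1.502, and 13 of the 14 at 25 CPM in the first untreated library, with a median of 1.42. Among these the myosin heavy chain gene unc-54 had 1074 CPM after lin-15b RNAi and 288 CPM in the first untreated library (3.74-fold, 3.59 to 3.89). The paramyosin gene unc-15 had 536 and 123 CPM, and the troponin I gene unc-27 86.2 and 15.4 CPM in the same order. All 11 measured intestinal genes were higher, with a median of 1.37, and the 6 at 25 CPM in the first untreated library had a median of 1.31, among them the aspartic protease gene asp-1 with 375 CPM after lin-15b RNAi and 135 CPM in the first untreated library.

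These lists are also the markers of epidermis, muscle and intestine, and most of their reads were sense, although the cuticle genes not named col- had 59.5% antisense reads. What part the makeup of the extracts had in the values above was not tested. The summed level of the 33 muscle genes was 4458 CPM after lin-15b RNAi and 1787 CPM in the first untreated library, with 7.78% of the lin-15b RNAi reads antisense. For the 31 intestinal genes it was 1454 and 652 CPM, and for the 157 collagens named col- 5585 and 1904 CPM, of which 15 had no read after lin-15b RNAi. The 146 neuronal genes summed to 782 CPM after lin-15b RNAi and 776 CPM in the first untreated library, with 10 measured, a median log2 ratio of -0.59 and 32 at 0 reads after lin-15b RNAi. Of the germline lists, the oocyte and embryo genes summed to 8763 and 6662 CPM, with a median of 0.30 over 32 measured genes and 0.08 over the 19 that were antisense-rich. The other germline lists were lower after lin-15b RNAi, with P granule genes at 12698 and 13587 CPM and meiosis genes at 11087 and 13991 CPM in the same order. In whole animals more cells of a type and more RNA per cell cannot be told apart. On HT115 the muscle genes summed to 2397 CPM, the intestinal genes to 939 CPM and these collagens to 2728 CPM, between the lin-15b RNAi and the first untreated library in each case. Some single genes were higher in an oma-1 library than after lin-15b RNAi, such as col-81 (154.4 CPM in F3) and asp-1 (423.7 CPM in F1). Others were not, such as unc-54, at 499.2 to 900 CPM in the oma-1 libraries.

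**Figure D5:**
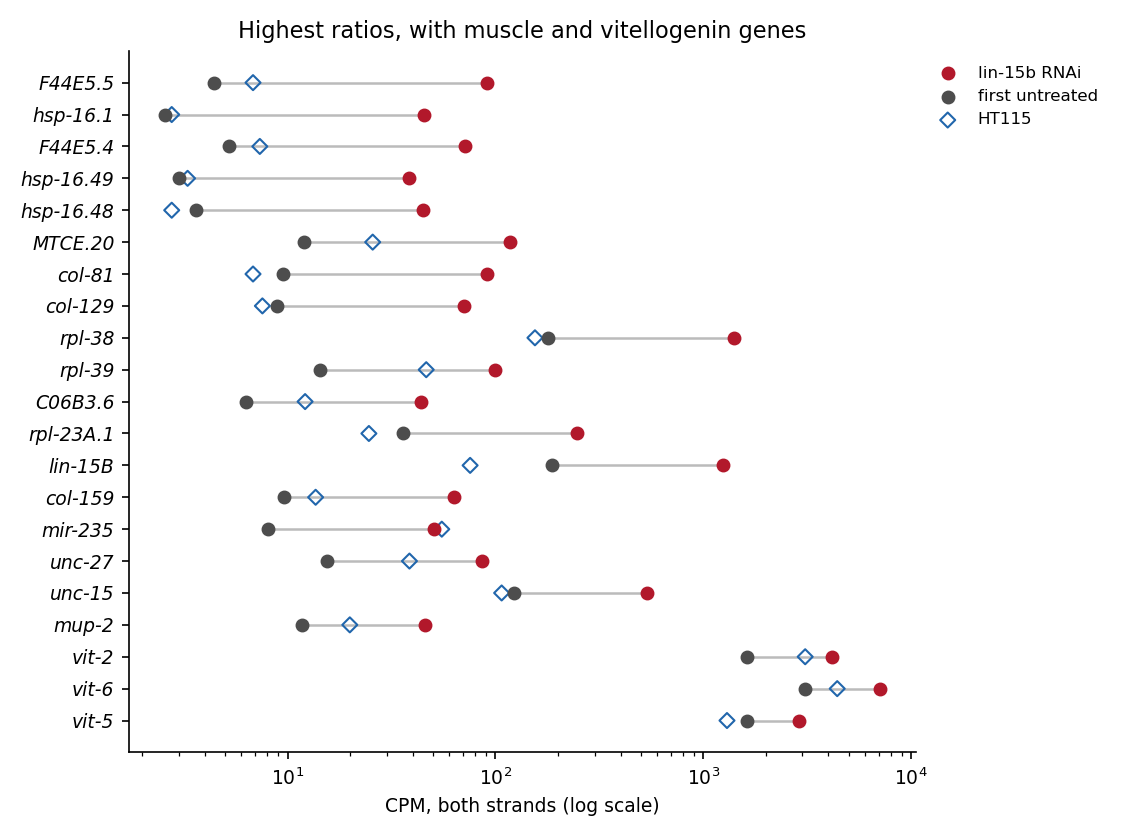
Levels over both strands, in CPM on a log scale, of the 15 genes with the highest log2 ratio, with muscle and vitellogenin genes added, ordered by ratio, with filled points for lin-15b RNAi and first untreated and open diamonds for HT115. Heat-inducible chaperone genes are at 38.45 to 90.8 CPM after lin-15b RNAi and at 2.56 to 7.35 CPM in the first untreated and HT115 libraries, and mir-235 is the gene shown whose HT115 level is above its lin-15b RNAi level.

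Yolk protein, ribosomal protein and histone transcripts followed the same course. The 6 vitellogenin genes, which encode yolk proteins made in the intestine, were all higher, with a median log2 ratio of 1.18. The most abundant, vit-6, had 7101 CPM after lin-15b RNAi and 3096 CPM in the first untreated library (2.29-fold, 2.26 to 2.32), and vit-1 was 4.18-fold higher (4.04 to 4.33). In the oma-1 F1 library vit-6 was at 7907 CPM and vit-1 at 1740 CPM, above their levels after lin-15b RNAi (1448 CPM for vit-1). The P0 and F3 levels of both genes were below those after lin-15b RNAi. Of the 74 measured ribosomal protein genes 73 were higher, with a median of 0.99. At 4-fold 3 of the 74 were higher, against 0.808% of all measured genes, namely rpl-38 with 1400 CPM after lin-15b RNAi and 179 CPM in the first untreated library, rpl-39 with 100 and 14.2 CPM, and rpl-23A.1 with 248 and 35.9 CPM. The reads of rpl-38 were 2.85% antisense after lin-15b RNAi and 75.8% antisense on HT115. Over all ribosomal protein genes the antisense share was 23.7% after lin-15b RNAi and 58.6% on HT115. Of 62 measured histone genes 56 were higher, with a median of 1.10, and the 39 at 25 CPM in the first untreated library had a median of 0.58. The H4 gene his-1 had 96.2 CPM after lin-15b RNAi and 20.3 CPM in the first untreated library. Histone genes of one class are near-identical copies, so their levels are uncertain one by one. The linker histone gene his-24, 94.3% antisense, was 1.42 times lower, with 1293 CPM after lin-15b RNAi and 1835 CPM in the first untreated library.

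Ribosomal and mitochondrial RNA were higher as well. All 21 measured rRNA genes had a higher level after lin-15b RNAi, with a median log2 ratio of 1.76. The large cytoplasmic rRNA gene rrn-3.1 had 17757 CPM after lin-15b RNAi and 11929 CPM in the first untreated library (1.49-fold, 1.478 to 1.499). HT115 held 35968 CPM of rrn-3.1 and the oma-1 libraries 35894 to 67402 CPM, so for rrn-3.1 both libraries of the pair were below the other 4. Over the rRNA genes at 25 CPM in the higher of the lin-15b RNAi and HT115 libraries, the median log2 ratio against HT115 was 2.02. The mitochondrial genes were higher in 13 of 13 measured cases, with a median of 1.18 and no antisense read. Only 3 of the 13 reached 25 CPM in the first untreated library, with a median of 1.35, and the rest had to be higher. Against HT115 over both strands the median of the mitochondrial list was -0.045, over the genes at 25 CPM in the higher of those 2 libraries. The mitochondrial rRNA gene MTCE.33 had 1419 CPM after lin-15b RNAi and 325 CPM in the first untreated library (4.37-fold, 4.215 to 4.536), and the tRNA gene MTCE.20 had 118 and 12.0 CPM. Another mitochondrial tRNA gene, MTCE.13, had 77.6 CPM after lin-15b RNAi, 17.9 CPM in the first untreated library and 852 CPM on HT115.

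The X chromosome, which is largely silent in the germline, showed a like division by strand. Of 236 measured X-linked protein-coding genes 163 were higher, with a median log2 ratio of 0.47. The 174 at 25 CPM in the first untreated library had a median of 0.14, and the 99 that were antisense-rich had a median of -0.07. Antisense-rich genes of chromosomes I to V had medians between -0.046 and -0.007.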

How the data were processed

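The authors deposited read counts per annotated transcript, 1 table a library. Tables of 5 libraries hold 2 count columns, sense and antisense, and that of the first untreated library holds 1. The columns carry no names, and the strand was judged from microRNA genes, whose reads lie in the first count column. Reads of 17 to 30 nt had been gel-purified before ligation, per the labels' protocols. Bowtie2 is the aligner that the submitters' processing notes name, and the sources used here give neither a version nor a build, an annotation or a counter.

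For each gene the transcript counts were added up and scaled to CPM over the 45162 genes in both tables of the pair. Levels on HT115 and in the oma-1 libraries are scaled over the same genes. Lines without a gene hold 0.000106% of the lin-15b RNAi reads and 0.000133% of the first untreated reads and were left out. Symbols came from the RefSeq table for 44187 genes, and 44852 genes were found in the Ensembl 115 annotation of WBcel235. No genome sequence or sequence table was used.

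Genes named are lin-15B, lin-15A and wago-4, the 10 most abundant genes of each library, the 15 highest and 15 lowest log2 ratios among all measured and among antisense-rich genes, up to 6 members of each list (3 by reads, 3 by ratio) and the neighbours of lin-15B. Further 5S rRNA copies, chaperone genes and ERGO-1 targets were named after their values were seen. The members and lists were chosen with earlier results of these data known. The cuticle, sperm, vitellogenin, histone, ribosomal protein, lincRNA, F-box and BATH or MATH lists, and in part the neuronal list, were filled by gene name. The list of annotated transposons matched no gene. A list of 11 constitutive chaperone genes had 10 measured and a median log2 ratio of 0.42, that of 26 measured DNA replication genes 0.12, that of 18 translational control genes 0.02 (negative under median-of-ratios and TMM scaling), that of 37 F-box genes -0.08 and that of 29 BATH or MATH genes -0.03 (of the other sign with protein-coding genes alone).

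Computation used Python 3.11.15 with numpy 2.4.6, pandas 2.3.3 and scipy 1.17.1, figures matplotlib 3.10.9, and TMM factors edgeR 4.0.16 in R 4.3.3. Alternatives were other scalings, pseudocounts, level minimums, strands, features and the HT115 library.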

Additional observations from a re-analysis of the deposited data

How the results depend on the processing

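With 1 library a side no difference could be tested against variation between libraries. Depth limits the genes under 25 CPM, such as hsp-16.2 with 204 reads after lin-15b RNAi and 5 in the first untreated library, whose fold has an interval of 20.6 to 152. No paired analysis was possible because the groups hold 1 library each. Median-of-ratios scaling, a pseudocount of 5, totals without the 20 most abundant genes and lin-15B, and a 50 CPM minimum kept the counts of 4-fold genes within 1.5 times, with 37 to 49 higher and 8 to 14 lower. TMM scaling lowered the median of all genes by 0.077 on the log2 scale and left 39 of the 47 higher genes, with 3 antisense-rich ones. The highest transcript in place of the sum gave 57 higher and 17 lower. Protein-coding genes alone gave 41 and 8, and 1 antisense-rich gene, lin-15B, was then higher. With no minimum level 1673 genes were higher and 1356 lower (440 and 109 antisense-rich), since a few reads then make a 4-fold difference. If the single column held antisense reads alone, 15 genes would be higher and 275 lower (15 and 4 antisense-rich). Against HT115 over both strands 157 were higher and 133 lower (80 and 84 antisense-rich), and over antisense reads 130 and 131 (129 and 94). Antisense shares taken from HT115, added after seeing the data, gave 6 higher and 8 lower antisense-rich genes. The counts with an antisense share of at least 0.9 or 0.3 were within 1.5 times of those reported.

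The log2 ratio of lin-15B was 2.74, and became 2.66 under TMM scaling, 2.46 for the highest transcript, 3.20 with the antisense column against the single column, 4.05 against HT115 over both strands and 4.49 against HT115 over antisense reads. For lin-15A the value of 0.49 became 0.88, 0.74 and 0.97 under the last 3 of these. The antisense share after lin-15b RNAi was 73.3% over protein-coding genes and 73.1% without the 20 most abundant genes.

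Setting the antisense column against the single column turned sense-read genes lower by construction. Log2 ratios were then -6.38 for C06B3.6, -6.69 for F12F6.11, -4.66 for F19H8.6, -2.95 for F44E5.4, -3.56 for F44E5.5, -7.89 for MTCE.13, -7.32 for MTCE.20, -12.07 for MTCE.33, -1.94 for col-129, -6.999 for col-159, -6.97 for col-81, -6.86 for cpr-5, -3.43 for his-1, -1.68 for his-61, -2.76 for his-63, -1.02 for hsp-16.1, -3.93 for mir-235, -4.80 for rpl-23A.1, -1.65 for rpl-38, -1.45 for rpl-39, -9.08 for unc-15, -7.67 for unc-27 and -10.58 for vit-1. Over antisense reads against HT115 the sense-read genes had -4.50 (C06B3.6), -2.18 (MTCE.33), -2.67 (col-159), -3.03 (col-81), -1.69 (his-1), -1.96 (his-63), -0.42 (rpl-23A.1), -1.41 (rpl-38), -1.08 (rpl-39), -3.83 (unc-15), -3.56 (unc-27) and -2.52 (vit-1). Of these genes C06B3.6, MTCE.33, col-159, col-81 and unc-27 had 0 antisense reads after lin-15b RNAi and 2 to 12 on HT115. Their values therefore depend on the pseudocount. The genes unc-15 and vit-1 had 1 antisense read each after lin-15b RNAi, and 23 and 9 on HT115. B0361.13 had 3 antisense reads after lin-15b RNAi and 0 on HT115, so its 2.95 comes from the pseudocount, and over both strands it was at -7.21. Y55D5A.1, at 0.042, had 42 and 45 antisense reads in the same order and was level. Other genes lower in the pair were higher, at 0.35 (Y71F9B.13), 0.63 (ZK1067.3) and 0.76 (linc-45). Over both strands against HT115, Y71F9B.13 was at 0.20, ZK1067.3 at 0.48, linc-45 at 0.62 and mir-54 at 0.56, while MTCE.13 was at -3.46 and mir-235 at -0.12. The cause of these reversals was not tested.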

Other observations

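MicroRNAs, which load into other Argonautes, appeared in these libraries as sense reads. Their reads were 0.447% of the lin-15b RNAi library and 0.280% of the first untreated library. Of 23 measured genes 17 were higher after lin-15b RNAi, with a median log2 ratio of 1.00. Those under 25 CPM in the first untreated library had to be higher. Of the 16 that reached 25 CPM there 10 were higher, with a median of 0.31. The comparison with HT115 covers another set, the microRNA genes at 25 CPM in the higher of the lin-15b RNAi and HT115 libraries. Their median log2 ratio over both strands was -2.25, and those at 25 CPM on HT115 alone had to be lower. The summed level over all microRNA genes was 4465 CPM after lin-15b RNAi and 5329 CPM on HT115. The neighbouring microRNAs mir-81 and mir-82 had 1025 and 1256 CPM after lin-15b RNAi, against 506 and 469 CPM in the first untreated library and 263 and 345 CPM on HT115. By contrast mir-54, of the mir-51 family that supports embryonic development, had 33.4 CPM after lin-15b RNAi and 229 CPM in the first untreated library, 6.86 times lower (6.10 to 7.74), and 22.7 CPM on HT115. The microRNA gene mir-260 had 7.63 CPM after lin-15b RNAi and 39.1 CPM in the first untreated library, and mir-235 had 50.9 CPM after lin-15b RNAi and 8.05 CPM in the first untreated library.

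piRNAs separated the pair from HT115. Of 11 measured piRNA genes 9 were higher after lin-15b RNAi, with a median log2 ratio of 0.46. Of the 5 that reached 25 CPM in the first untreated library 3 were higher, with a median of 0.12, and the rest had to be higher. The summed level over all piRNA genes was 1183 CPM after lin-15b RNAi, 967 CPM in the first untreated library and 352 CPM on HT115. The piRNA gene 21ur-2721 had 62.9 CPM after lin-15b RNAi, 57.9 CPM in the first untreated library and 1.49 CPM on HT115.

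Of 33 measured snoRNA genes 27 were higher, with a median log2 ratio of 0.66. Of the 24 that reached 25 CPM in the first untreated library 18 were higher, with a median of 0.54. ZK265.10 had 1713 CPM after lin-15b RNAi and 848 CPM in the first untreated library, while T26A8.6 had 684 and 1221 CPM in the same order. Of 19 measured lincRNA genes, most of them antisense-rich, 13 were lower, with a median of -0.29. The lincRNA gene linc-22 had 267 CPM after lin-15b RNAi, 898 CPM in the first untreated library and 1278 CPM on HT115. Of 9 measured tRNA genes 6 were higher, with a median of 0.66. That median turned negative without the most abundant genes in the total, although the median of all measured genes then shifted by only 0.007. Of the 4 tRNA genes that reached 25 CPM in the first untreated library 1 was higher, with a median of -0.84. The rest of the 9 had to be higher.

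The non-coding gene B0361.13 had 22 reads after lin-15b RNAi and 374 in the first untreated library, 14.2 times lower (9.23 to 22.9), at 2.33 CPM after lin-15b RNAi and 353 CPM on HT115. It had the lowest ratio of all measured genes.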
